A study of Mus musculus with 8 samples.

Results

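The retinoic acid receptors Rara, Rarb and Rarg and the retinoid X receptors Rxra, Rxrb and Rxrg were followed in E14Tg2A.4 mouse embryonic stem (ES) cells before and after treatment with retinoic acid (RA). Every non-control probe whose gene name in the scanner output is one of these 6 genes was taken, which gave 11 of the 55681 probes on the array and 6 of the 36406 names the array gives. The control group was the untreated ES cells, described in the study as self-renewing, and the treated group had received 1 µM all-trans RA in medium without leukemia inhibitory factor for 72 h. Whether the untreated cultures held this factor is not given in the sources used here, so a part of it in any difference cannot be told apart from that of RA. There were 4 biological replicates of each group, all of this 1 established line without any transgene or knockdown in the labels, and their total RNA was hybridized to 1-colour Agilent expression arrays, where a brighter spot means more of the transcript its probe reads.

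RA enters the nucleus and binds RAR proteins, which sit on DNA as heterodimers with an RXR. Without ligand the pair holds corepressor complexes with histone deacetylases on its target genes, and ligand exchanges these for coactivators with histone acetyltransferases. RXR proteins are also the common partner of other nuclear receptors, such as the receptors for thyroid hormone, vitamin D, fatty acids and oxysterols. In ES cells, RA is widely used to end self-renewal and start differentiation, and Rarb is among the best known direct targets of the pathway, being a receptor and a target at once.

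RAR-RXR pairs bind direct repeats of a half-site of the form AGGTCA. The 13 RefSeq promoter windows of the 6 genes (GRCm38.p6, 250 bases before to 50 bases after each transcription start) were searched on both strands for 2 half-sites in the same orientation (AGGTCA and its forms AGTTCA and GGGTCA, or both changes together as GGTTCA), 1, 2 or 5 bases apart. A single match was found, with the spacing of 5 bases, in the window of Rarb (chr14:16575427-16575726, minus strand). The 250 bases before that start are shown because the gene that rose most of the 6 is the one that holds the match, which is printed in capitals and lies at positions -53 to -37 from the start.
Rarb promoter: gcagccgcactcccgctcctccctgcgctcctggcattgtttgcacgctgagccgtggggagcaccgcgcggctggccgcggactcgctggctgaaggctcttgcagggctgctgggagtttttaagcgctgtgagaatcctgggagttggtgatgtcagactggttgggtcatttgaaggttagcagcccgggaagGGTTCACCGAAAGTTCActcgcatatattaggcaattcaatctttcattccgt
The same search matched the spacing of 5 bases in 32 of all 32851 windows (0.0974%), the spacing of 1 base in 0.222% and that of 2 bases in 0.268%. A match is a match of letters, and its absence from the other 12 windows says only that these letters are not in them.

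Signals are given as log2 intensity relative to the 75th percentile of the non-control spots of the same array, so that 0 is a spot at that percentile. The level at 1 probe is not comparable with that at another, and only changes between conditions were compared. Summed levels of marker lists are given at the end as a description only. A probe was called when limma gave a Benjamini-Hochberg adjusted p under 0.05 over all 55681 probes and the fold change was above 1.5, the limits the study states. Between 56.7% and 62.7% of the spots of an array were well above background by the scanner's own flag and none was saturated, and the correlation between replicates was 0.981 to 0.987 among untreated and 0.987 to 0.991 among RA-treated arrays. Of all probes, 34.6% were called, 12.9% as higher and 21.6% as lower in RA, and the groups did not overlap at 37.7%. The median change of all probes was -0.28 on the log2 scale, so a value near it is a change like that of the typical probe, and under quantile normalization it was -0.0024. The ES cell markers Pou5f1, Nanog, Sox2, Zfp42, Esrrb and Dppa5a were well above background in untreated cells and all 6 were called lower in RA. Since whole cultures were measured, fewer cells with a transcript and less of it per cell cannot be told apart.

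Of the 11 probes, 3 were called higher and 4 lower after RA, that is 2 probes of Rarb and 1 of Rxra against 1 each of Rarg, Rxra, Rxrb and Rxrg. By the brightest probe of each gene (over the mean of all 8 arrays), Rarb rose, Rarg, Rxra and Rxrb fell, and Rara and Rxrg were not called. Over all names on the array, represented in the same way, 36.1% were called, 13.9% as higher and 22.1% as lower, and the groups did not overlap at 40.5%. Among the receptors the groups did not overlap at the brightest probes of the 4 called genes, Rarb, Rarg, Rxra and Rxrb.

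**Figure D1:**
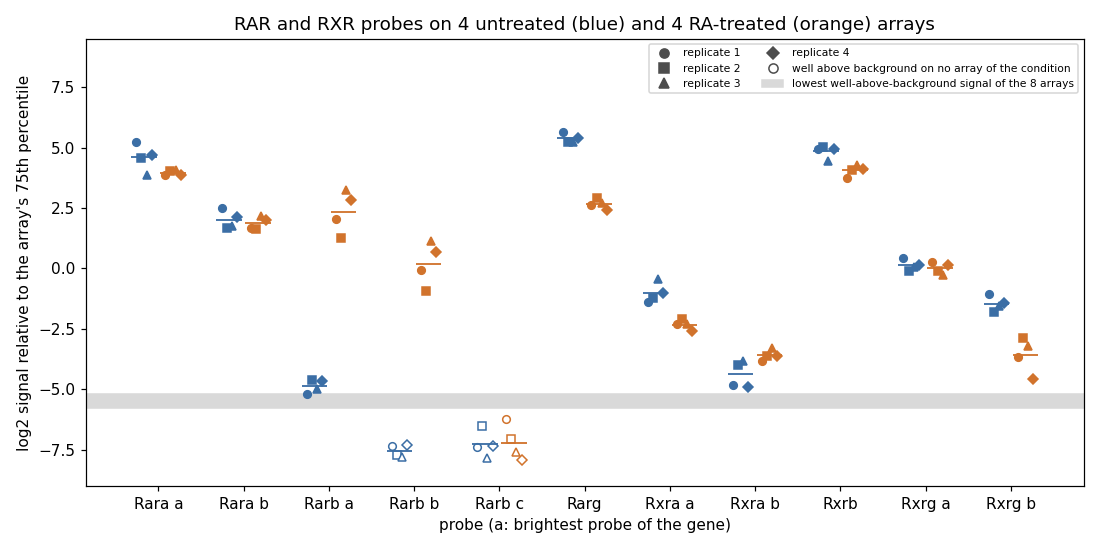
Log2 signal relative to the 75th percentile of the array (y axis) of the 11 receptor probes (x axis, letter a for the brightest probe of a gene) on 4 untreated (blue) and 4 RA-treated (orange) arrays, with a marker shape for each replicate number and a line at each mean. Rarb a rises by 7.21 log2 units, Rarb b goes from below the grey band to above it, Rarg falls with no overlap, and Rarb c lies below the grey band of the lowest signals well above background on every array.

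Rarb encodes the RA receptor beta. Its brightest probe, A_55_P1962154 (mm9 chr14:17263367-17263426, minus strand, position 2701 of its transcript record), gave -5.20, -4.61, -4.98 and -4.66 on untreated arrays 1 to 4 and 2.05, 1.26, 3.24 and 2.85 on RA arrays 1 to 4. The groups lay far apart, and the RA-treated arrays spread over a wider range than the untreated ones. The rise was 7.21 on the log2 scale (SE 0.40, 95% interval 6.30 to 8.12, n = 4 per group, adjusted p = 5.31e-06 by limma), or 148-fold. Untreated 1 lay close to the lowest signal well above background of its array (-5.23), and the fold depends on the processing, as given below.

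A second Rarb probe, A_55_P2084807 (mm9 chr14:17264648-17264707), reads the same transcript record at position 1420, and its letters are shown because it reports the rise farther from the end of the transcript than the brightest probe.
Rarb probe A_55_P2084807: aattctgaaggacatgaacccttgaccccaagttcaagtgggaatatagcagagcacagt
On this probe no untreated array was well above background, with -7.34, -7.74, -7.82 and -7.30, while the RA-treated arrays gave -0.07, -0.94, 1.12 and 0.68. Because the untreated level is only bounded, the signal was at least 49.7-fold higher in RA (adjusted p = 4.36e-06 by limma, groups not overlapping). The order of the RA-treated arrays was the same on both probes, lowest on RA 2 and highest on RA 3. With normexp background correction the fitted rise of this probe was 14.7-fold and in the authors' values 15.6-fold, below that bound, which holds only for the scale used here.

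The third Rarb probe, A_55_P2099585 (mm9 chr14:17651424-17651483), was designed on the record of the beta 1 transcript, at its position 36. It was not well above background on any of the 8 arrays, with values of -7.87 to -6.51 in untreated and -7.95 to -6.23 in RA-treated cells, and no fold is given. The rise was seen at both probes designed on the other transcript record. The beta 1 probe lies near the start of its own record, and no array was well above background there. Whether the 2 rising probes also read the beta 1 transcript was not tested, so the rise is not assigned to 1 form of the transcript.

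Under quantile normalization the rise of the brightest Rarb probe was 7.45, with normexp background correction 5.67 and in the authors' own values 5.81. Leaving out any single array gave 6.92 to 7.58. Within the 2 slides it was 7.54 and 6.89. The arrays also differed in other genes: Cyp26a1, the RA-degrading enzyme, gave 0.82, 0.94, 3.08 and 1.92 on RA arrays 1 to 4, and Pou5f1, the pluripotency factor Oct4, gave 0.39, 2.05, -0.68 and -1.16. RA 2, lowest in Rarb, was the highest in Pou5f1, and RA 3 was highest in Rarb and Cyp26a1. Cyp26a1 was lowest on RA 1 and Pou5f1 on RA 4, so the orders of the arrays differed between the genes. With 4 arrays no relation among them was tested.

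Rarg encodes the receptor gamma, the RAR usually named with Rara as present in undifferentiated ES cells. Its only probe, A_55_P2151056 (mm9 chr15:102065371-102065430, minus strand, position 2857), gave 5.66, 5.25, 5.23 and 5.41 in untreated and 2.63, 2.92, 2.69 and 2.42 in RA-treated cells. All 8 arrays were well above background and the groups did not overlap. Rarg fell by 2.73 (SE 0.17, 95% interval -3.10 to -2.35, adjusted p = 7.87e-06 by limma), a 6.61-fold difference. Under the alternatives the change stayed between -2.81 and -2.51, and it was -2.92 and -2.53 within the slides.

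Rara encodes the receptor alpha. Its brightest probe, A_55_P2095345 (mm9 chr11:98836197-98836256, plus strand, position 3324), gave 5.23, 4.59, 3.88 and 4.71 in untreated cells and 3.86, 4.03, 4.07 and 3.87 in RA-treated cells. Untreated 3 lay within the RA-treated values, and the other 3 untreated arrays above them. The difference of -0.65 (SE 0.26, 95% interval -1.24 to -0.05) was not called (adjusted p = 0.085 by limma). It was not called under 14 of 16 alternatives either. Among these were quantile normalization (-0.46, adjusted p = 0.145 by limma) and the authors' values (-0.48, adjusted p = 0.106 by limma). The 2 that called it were leaving out untreated 3 (-0.89, adjusted p = 0.0073 by limma) and normexp background correction (-0.64, adjusted p = 0.032 by limma).

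The second probe of Rara, A_55_P2095342 (mm9 chr11:98835350-98835409, position 2477), gave 2.51, 1.69, 1.76 and 2.11 against 1.69, 1.61, 2.19 and 2.00. The groups overlapped, with untreated 1 above every RA-treated array, and the difference of -0.15 (95% interval -0.66 to 0.36, adjusted p = 0.610 by limma) was not called. The difference between both probes changed by -0.50, which did not pass the exact two-sided permutation test (p = 0.086) and does not show that they moved alike.

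Rxrb encodes the retinoid X receptor beta. Its only probe, A_55_P2008609 (mm9 chr17:34175279-34175338, plus strand, position 2511), gave 4.96, 5.04, 4.44 and 4.96 in untreated and 3.76, 4.05, 4.30 and 4.10 in RA-treated cells. The groups did not overlap, although untreated 3 and RA 3 lay close to each other. Rxrb fell by 0.80 (SE 0.19, 95% interval -1.22 to -0.37, adjusted p = 0.00955 by limma), 0.52 below the median of all probes. Its call was kept under all 15 alternatives, with changes of -0.93 to -0.60 and a highest adjusted p of 0.035 by limma.

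Rxra encodes the retinoid X receptor alpha, and its 2 probes went opposite ways. The brightest, A_51_P307370 (mm9 chr2:27615316-27615375, plus strand, position 1743), gave -1.38, -1.23, -0.43 and -1.04 in untreated and -2.31, -2.08, -2.30 and -2.60 in RA-treated cells. It fell by 1.30 (SE 0.23, 95% interval -1.82 to -0.78, adjusted p = 0.00192 by limma) with no overlap of the groups, and without any single array by 1.10 to 1.42.

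The other Rxra probe, A_55_P2074331 (mm9 chr2:27618781-27618839), lies 3405 bases further along, at position 5208 of the same transcript record. It gave -4.83, -3.98, -3.82 and -4.90 in untreated and -3.81, -3.63, -3.30 and -3.61 in RA-treated cells. Untreated 1 and 4 lay near the lowest signals well above background of their arrays (-5.23 and -5.20). The rise of 0.79 (SE 0.27, 95% interval 0.17 to 1.42) passed narrowly (adjusted p = 0.0494 by limma), and the highest untreated and the lowest RA-treated array almost met. Under 10 of 15 alternatives the call was lost, with a range of 0.19 to 1.06, among them the removal of untreated 1 or 4 or of any RA-treated array.

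The difference between both Rxra probes on the same array was 2.75 to 3.86 in untreated and 1.00 to 1.56 in RA-treated cells. It changed by -2.09 (exact two-sided permutation test, p = 0.0286, adjusted p = 0.043 over 3 pairs of probes). With normexp it changed by -1.24, in the authors' values by -1.37 and with quantile normalization by -2.29, each at the same smallest p by the exact test. Paired by replicate number, exact sign flips cannot go below p = 0.125 for this gene or for Rxrg. The mean of both probes changed by -0.25 and was not called (adjusted p = 0.369 by limma). A fall of Rxra is thus a statement about the brighter probe.

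Rxrg encodes the retinoid X receptor gamma, and here too the call depends on the probe. The brightest, A_55_P2044359 (mm9 chr1:169569496-169569555, plus strand, position 1873), gave 0.44, -0.13, 0.05 and 0.13 in untreated and 0.27, -0.11, -0.27 and 0.13 in RA-treated cells. The groups overlapped in part, with untreated 1 the highest and RA 3 the lowest array, and the difference was -0.12 (SE 0.18, 95% interval -0.53 to 0.30, adjusted p = 0.609 by limma).

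The second Rxrg probe, A_51_P513311 (mm9 chr1:169569624-169569683, position 2001), starts 68 bases beyond the end of the first. It gave -1.05, -1.82, -1.56 and -1.41 in untreated and -3.65, -2.86, -3.22 and -4.58 in RA-treated cells. All RA-treated arrays lay below all untreated ones, all were well above background, and the probe fell by 2.12 (SE 0.36, 95% interval -2.93 to -1.31, adjusted p = 0.00155 by limma). Within the slides the change was -2.81 and -1.42, and in the authors' values, over both slides, it was -1.42 as well.

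The difference between these neighbouring probes was 1.49 to 1.69 in untreated and 2.76 to 4.71 in RA-treated cells, a change of 2.00 (exact two-sided permutation test, p = 0.0286, adjusted p = 0.043 over 3 pairs of probes), and of 1.33 in the authors' values. The mean of both probes was called lower (-1.12, adjusted p = 0.00286 by limma). The first probe holds the letters AATAAA, those of the common polyadenylation signal, and 30 bases around them are shown because they lie upstream of the probe that fell.
Rxrg probe A_55_P2044359, part: tgtgatgcttgtAATAAAgacaacctttct
The brightest probes of Rara, Rarb and Rarg hold AATAAA as well, so that 4 of the 11 receptor probes did, against 10.1% of all probes. What part transcript ends have in the unequal changes was not tested.

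**Figure D2:**
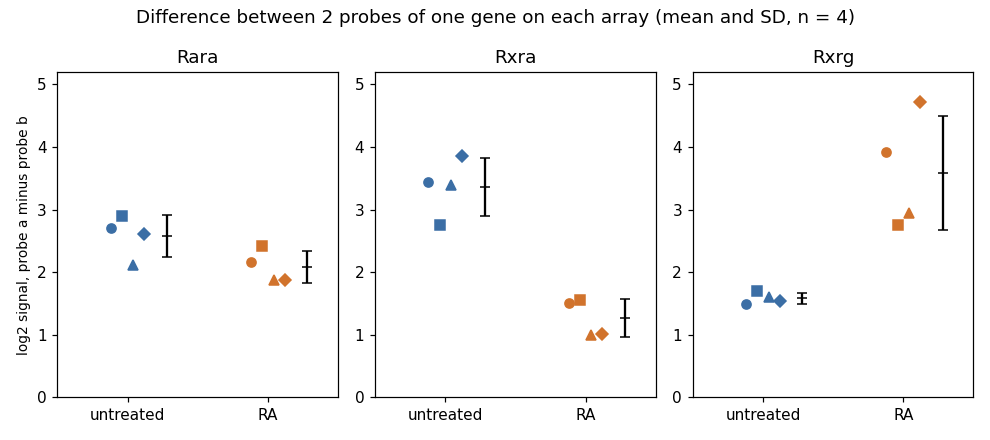
Log2 signal of probe a minus that of probe b on the same array (y axis) for the 3 genes with 2 probes well above background on every array, on untreated (blue) and RA-treated (orange) arrays, with mean and SD (n = 4) in black and a marker shape for each replicate number. For Rxra the difference drops from 2.75 to 3.86 down to 1.00 to 1.56, for Rxrg it goes up from 1.49 to 1.69 to 2.76 to 4.71, and for Rara the groups overlap.

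The 6 receptors were then compared with each other by the difference of their brightest probes on each array, from which a factor common to the whole array drops out. Of the 15 pairs, 10 changed with RA at the smallest p the exact two-sided permutation test allows (p = 0.0286, adjusted p = 0.043), with 11 pairs under normexp and 9 in the authors' values. With the replicate numbers taken as pairs, exact sign flips cannot go below p = 0.125 and no pair passed. Rarb changed differently from each of the other 5, by 7.33 against Rxrg to 9.94 against Rarg. Rarg changed differently from each of the others too, by -1.42 against Rxra, -1.93 against Rxrb, -2.08 against Rara and -2.61 against Rxrg. The remaining pair was Rxra against Rxrg (-1.18), which rests on the choice of probe in both genes.

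No difference passed between Rara and Rxra (0.66, p = 0.200), Rara and Rxrb (0.15, p = 0.429), Rara and Rxrg (-0.53, p = 0.114), Rxra and Rxrb (-0.51, p = 0.229) or Rxrb and Rxrg (-0.68, p = 0.086), all by the exact two-sided permutation test. In the order of the changes, Rarb, Rxrg, Rara, Rxrb, Rxra and Rarg, the neighbours that differed were Rarb from Rxrg and Rxra from Rarg. When an RA-treated array was left out, 8 or 9 pairs were still at the smallest p, and since adjustment over 15 pairs then needs at least 9, the adjusted count was 0 without RA 1, RA 2 or RA 4.

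**Figure D3:**
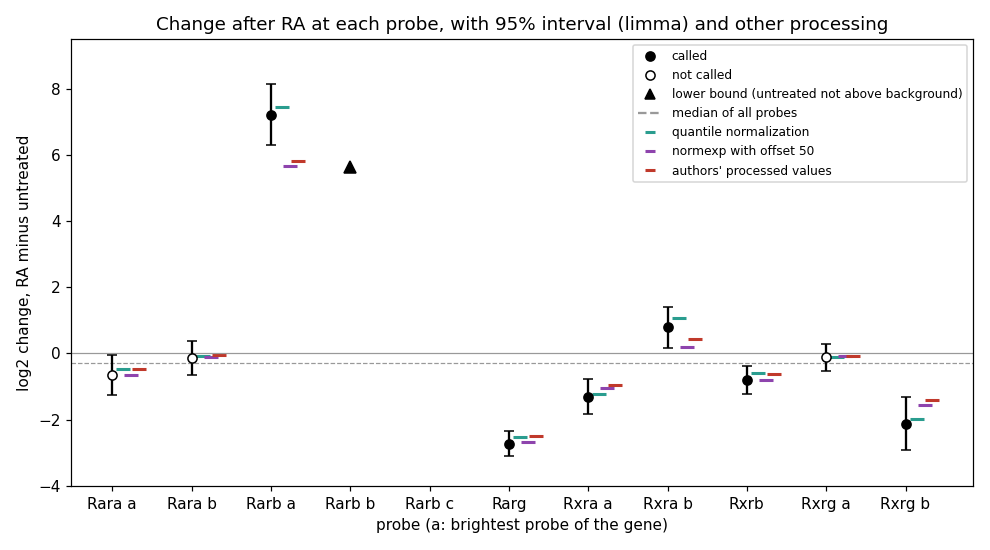
Change in log2 signal, RA minus untreated (y axis), of the 11 receptor probes (x axis) with the 95% interval of limma (black, filled when called) and the same change under quantile normalization, normexp background correction and the values the authors processed (coloured bars). The interval of Rarb a lies above 6 and that of Rarg below -2, the triangle is the lower bound of Rarb b on the scale of the 75th percentile, and Rarb c, not above background on any array, has no value.

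The genes next to the receptors in the RefSeq order moved in several ways. Top2b, the DNA topoisomerase II beta gene whose span ends 51 bases from that of Rarb, rose by 2.21 (adjusted p = 1.09e-05 by limma), while Thrb, the thyroid hormone receptor gene on the other side, was well above background on 1 of 8 arrays and not called. Both neighbours of Rarg fell with it, Itgb7, an integrin subunit, by 4.88 (-4.25 in the authors' values) and Mfsd5 by 1.12. Beside Rxra, Wdr5, a subunit of histone methyltransferase complexes, fell by 0.81 and Col5a1, a collagen chain, rose by 3.21. The neighbours of Rara (Cdc6, -0.62, and Gjd3, well above background on 1 of 8 arrays), of Rxrb (Slc39a7, -0.20 and Col11a2, 0.66) and of Rxrg (Lmx1a, 0.82, and Lrrc52, not well above background on any array) were not called. Thus 5 of 12 neighbours were called, beside 36.1% of all names. Under the other scalings Slc39a7 ran from -0.20 to 0.04, and Col11a2 was called in 1 of them.

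The profiles most like each receptor over the 8 arrays, by the root-mean-square difference of log2 values centred on their mean among 13806 genes, are given as a description. For Rarb they were Nr2f2, the orphan nuclear receptor COUP-TFII (difference 0.213, Pearson r 0.999), Sox9, a transcription factor (0.358, r 0.995), and Hapln1, a matrix link protein (0.409, r 0.997). Nr2f2 rose by 6.94 and Sox9 by 7.26, and these r values mostly reflect the distance between the 2 groups. For Rarg they were Pml, a nuclear body protein (0.118, r 0.996), Helb, a DNA helicase (0.128, r 0.996) and Cd3eap, an RNA polymerase I subunit (0.157, r 0.996). For Rara they were Cdc14b, Gpsm3 and Itpa, for Rxra Eng, Piwil2 and Nos1, for Rxrb Spata7, Igsf8 and Urod, and for Rxrg C1rl, Gm12633 and Pdzd11, at differences of 0.0734 to 0.145.

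Of 11 corepressor genes, 3 were called higher, 2 lower and 6 not at all, with a median change of -0.09. Over all names 36.1% were called, 13.9% higher and 22.1% lower, with a median of -0.28. Nrip1, a ligand-dependent corepressor that RA is known to induce, rose by 3.08 (adjusted p = 8.80e-06 by limma), and by 3.29 at its other probe. Lcor, another ligand-dependent corepressor, rose by 1.34, and the deacetylase gene Hdac2 and the scaffold gene Sin3a fell by 0.79 and 0.73.

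Ncor1, a core corepressor of the unliganded receptor, was not called at its brightest probe. It gave 2.03 to 2.29 in untreated and 1.54 to 1.71 in RA-treated cells, a difference of -0.58 that passed the adjusted p (0.00799 by limma) but not the fold of 1.5. A dimmer Ncor1 probe went the other way and was called (0.91, adjusted p = 0.00222 by limma) and another was not (-0.20), so the probes of this gene disagree.

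Of 10 coactivator genes, 3 were called higher, 4 lower and 3 not, with a median of 0.28, beside 13.9% higher and 22.1% lower among all names. Ncoa6 rose by 1.58 and Ncoa2, a p160 coactivator also known as GRIP1, by 1.47. Ncoa1, the p160 coactivator SRC-1, fell by 1.13, with all 3 of its probes called lower, and the acetyltransferase gene Kat2b fell by 1.57. The family of p160 coactivators thus held calls in both directions.

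The genes that carry, make and degrade RA were mostly called higher, 11 of 15 with none lower and a median of 3.55, beside 13.9% of all names called higher. Aldh1a1, which oxidizes retinal to RA, rose by 6.25 (adjusted p = 0.000189 by limma), Cyp26a1 by 6.09 (adjusted p = 4.23e-05 by limma) and Crabp2, which delivers RA to the receptors, by 3.94 (adjusted p = 4.29e-06 by limma). The lowest values under other scalings were 4.80 for Aldh1a1 and 4.68 for Cyp26a1. Cyp26a1 was at -5.04 to -3.76 in untreated and 0.82 to 3.08 in RA-treated cells. The 4 genes not called, named after their values were seen, were Rdh11, Aldh1a2, Aldh1a3 and Cyp26c1.

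Of 13 known RA target genes, 12 were called higher and 1, Cdx1, was not, with a median of 3.94, beside 13.9% of all names called higher. Of these, 5 are also among the metabolism genes, so the 2 lists overlap. Hoxb4 rose by 6.42 (adjusted p = 2.22e-05 by limma, lowest 5.42 under other scalings), and Hoxb1, not well above background on any untreated array, was at least 25.8-fold higher in RA on the scale used here, while its fitted rise was 7.73-fold with normexp and 8.20-fold in the authors' values.

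Among 13 nuclear receptors that pair with RXR, 3 were called higher, 4 lower and 6 not, with a median of -0.47, beside 13.9% higher and 22.1% lower among all names. Pparg, the fatty acid receptor of fat cells, rose by 2.38 and Nr4a2, an orphan receptor known from dopamine neurons, by 2.36, and under other scalings the lowest values were 1.60 and 1.62. Nr1h4, the bile acid receptor, was at least 4.75-fold lower in RA, where no array was well above background, on the scale used here, while its fitted fall was 2.02-fold with normexp and 1.72-fold in the authors' values. Nr1i2, the pregnane X receptor, was called lower with only 1 of 8 arrays well above background, so that no fold is given, and was called in 1 of 4 other scalings.

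**Figure D4:**
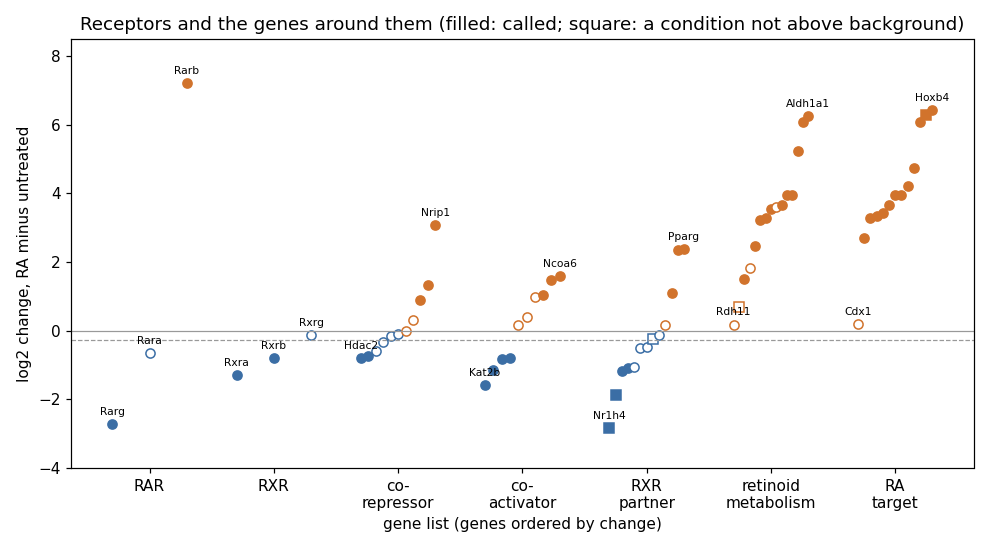
Change in log2 signal, RA minus untreated (y axis), of the 3 RARs, the 3 RXRs and the genes of 5 lists (x axis, ordered by change within a list), by the brightest probe of each gene, with filled points for called genes and a dashed line at the median of all probes (-0.28). Rarb stands with the genes of retinoid metabolism and the RA targets, and the other 5 receptors lie between -2.73 and -0.12. Squares mark genes not well above background on any array of a condition, whose fitted change is not a measured size.

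Markers of other cell types changed too, beside 13.9% of all names called higher and 22.1% lower. Summed levels are given as a description and follow the brightest probes of each list. All 6 primitive endoderm markers were called higher (median 3.16), with a summed level, on the linear scale relative to the 75th percentile, of 8.27 to 22.6 in untreated and 56.9 to 75.2 in RA-treated cells. Of 6 fibroblast markers 5 were called higher (summed level 1.05 to 1.83 and 30.4 to 48.7), of 6 neural markers 1 was higher and 1 lower (6.18 to 9.80 and 10.5 to 11.9), and of 6 mesoderm markers 2 were lower (2.25 to 2.75 and 1.96 to 3.55). The summed level of the ES cell markers went from 425 to 593 down to 44.0 to 118. Postn of the fibroblast markers was not well above background on any untreated array. Of the 2 mesoderm markers called lower, Mesp1 was not well above background on any RA-treated array and Mixl1 on no array at all. The part of these changes in the mixture of cells in the changes of the receptors was not tested.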

How the data were processed

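RNA of 4 untreated and 4 RA-treated E14Tg2A.4 cultures was measured, labelled with Cy3 from oligo-dT primed cDNA, which favours transcript ends. The authors deposited the Agilent Feature Extraction (version 10.7.3.1) output of each array, with a background-corrected intensity per spot and no normalization across arrays. They also deposited log2 values, which the authors had processed in a way not given in the sources used here and which served as an alternative. Probe positions are on mm9, per the file headers.

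In R (version 4.3.3), outlier spots (124 to 145 per array) and the 3671 control spots were left out. The 75th percentile of the 59305 non-control spots was subtracted from the log2 intensity, and spots of a probe were averaged. RA was set against untreated in limma (version 3.58.1, lmFit and eBayes) over 55681 probes, with no filter on dim probes and tested on simulated data. A gene takes its probe with the highest mean. For a probe well above background on no array of a condition, the fold is a bound against the lowest signal well above background.

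Receptor pairs, and the 3 pairs of probes of 1 gene that were well above background on every array, were compared by exact permutation over 70 splits. The members and lists were chosen with earlier results of these data known. In each list, the 2 largest rises and falls that were called are named, with Cyp26a1, Ncor1, Crabp2, Nrip1, the neighbours in RefSeq and the 3 most similar profiles. A gene chosen by this rule is not reported here.

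Replicate numbers 1 to 4 occur in both groups. For numbers 1 to 4, deviations from the group means correlated at 0.186, 0.189, 0.104 and 0.151, over 27493 probes that every array showed well above background. The highest correlation between different numbers was 0.142, which number 3 did not reach. Both arrays of number 1 were on slide 1 and both of number 2 on slide 2, so number and slide cannot be told apart there. The arrays of number 3, and those of number 4, were on different slides. This check and the labels do not settle whether the numbers are pairs. The main limma fits and the exact permutation took no pairing, and the replicate block and the sign flips took it. The number of arrays limits the precision. Alternatives were quantile normalization, normexp background correction (offset 50), the authors' values, a filter on dim probes, the mean of all probes, no limit on fold, slide or replicate as a block, and leaving out each array. The other probes of a gene were put through these after their values had been seen.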

Additional observations from a re-analysis of the deposited data

Results flagged for a closer look

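On 5 of the 84 groups of 4 arrays examined, 1 array lay far from the other 3 by Dixon's criterion, where chance gives about 1 in 20, or 4.2. For Rxrb, untreated 3 was at 4.44 with the others at 4.96 to 5.04. For Aldh1a1, untreated 3 was at -2.97 with the others at -5.09 to -4.78, and for Crabp2 it was at 1.97 with the others at 2.65 to 2.70. For Gjd3, the neighbour of Rara, RA 3 was at -3.44 with the others at -6.40 to -6.31. For Mfsd5, the neighbour of Rarg, untreated 4 was at 4.79 with the others at 4.32 to 4.40. Untreated 3 also held the lowest Rara value among untreated arrays, 3.88, and without it the difference of Rara was called.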

How the results depend on the processing

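The calls of Rarb, Rarg and Rxrb kept their direction and their side of the threshold under every alternative run, including the slide and the replicate number as a block. Rara became called with normexp (-0.64) and without untreated replicate 3 (-0.89), and in 14 of 16 alternatives it was not called. Over the arrays left out its change ran from -0.89 to -0.44. With the mean of all probes of a gene, Rxra was no longer called (-0.25) and Rxrg was (-1.12), while Rarb stayed called at 5.01, a fitted value that takes in 2 probes not above background in untreated cells. The count of receptor pairs that differed, 10, ran from 0 to 12 over the arrays left out. It was 0 when the pairing by replicate block was used, where sign flips over 4 pairs cannot go below p = 0.125 in an exact test; the replicate block changed no call of a receptor at its brightest probe. The second probe of Rara changed sign without untreated replicate 1 (0.019, lowest -0.26 over the arrays left out). The beta 1 probe of Rarb was not well above background on any array, so its fitted values are not a measured change. It changed sign with normexp (-0.13), without untreated replicate 3 (-0.13) and without RA replicate 1 (-0.26). It ran from -0.26 to 0.33 over the arrays left out and was 0.42 with quantile normalization. The count of called genes in each of the 5 lists moved by at most 1. The low untreated signal of Rarb limits how well its fold is known, and the causes of these shifts were not tested.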
